A study of Oryza sativa with 6 samples.

Results

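TPP1 (Os02g0661100) and TPP2 (Os10g0553300) are a pair of rice genes that the deposited table names as trehalose-6-phosphate phosphatases 1 and 2. They were taken by these identifiers, and both were found, as 2 of the 39367 genes in the table. The libraries came from panicles, the flower-bearing organs of rice, of the CTB3-cr1 line (3 libraries) and of the wild-type cultivar Nipponbare (3 libraries). The labels give the genotype of CTB3-cr1 as a CTB3 knockdown, while the column headings abbreviate it as a knockout. All panicles had 1 day of a cold treatment that the series abbreviates CS-PT, a term that neither labels nor headers explain. CTB3-cr1 was the only mutant line and panicles without cold were not analysed here, so an effect of CTB3 cannot be told apart from other differences of that line, and no value here is a response to cold.

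Trehalose is a sugar that plants make by a short pathway. Trehalose-6-phosphate synthases (TPS) join a glucose phosphate to UDP-glucose, trehalose-6-phosphate phosphatases (TPP) remove the phosphate, and trehalase splits the resulting trehalose into glucose. The intermediate, trehalose-6-phosphate, acts as a signal of sucrose supply and restrains the SnRK1 kinase, which governs the response to sugar starvation. TPP1 and TPP2 of rice encode active phosphatases whose transcripts are known to respond to cold in seedlings, and rice plants that overproduce TPP1 are known to tolerate cold and salt better.

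Total gene counts ranged from 14422565 to 16982031 per library. All 10 floral markers, MADS-box genes and DROOPING LEAF, were detected in all 6 libraries, with summed levels, as counts scaled to library size by edgeR (CPM), of 1461.5 to 1615 in CTB3-cr1 and 1369.2 to 1719.7 CPM in Nipponbare. Nipponbare replicate 2 stood apart on the first principal component of all tested genes (38.9% of variance), at 80.3 against -54.8 to 17.2 in the other libraries. Nipponbare replicate 3 stood apart on the second (28.6%), at 67.1 against -43.0 to 20.9 in the other libraries.

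TPP1 was lower in CTB3-cr1 panicles, but the Nipponbare libraries differed widely among themselves and the difference did not pass the test over all genes. TPP1 lies on chromosome 2 from 26767607 to 26771623 on the minus strand, in the table's own coordinates; the build behind them is not named in the labels or headers. Its counts were 212, 180 and 186 in CTB3-cr1 replicates 1, 2 and 3, against 241, 751 and 507 in Nipponbare replicates 1, 2 and 3. Scaled to library size as CPM, these were 13.8, 11.2 and 10.9 CPM in CTB3-cr1 and 15.3, 54.4 and 30.0 CPM in Nipponbare. The CTB3-cr1 libraries were close to each other, and every Nipponbare library was above all 3 of them. The groups lay apart in this direction in 5.36% of the 25636 genes tested.

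The distance between the groups was small at its nearest point. CTB3-cr1 replicate 1 had a 95% exact Poisson interval of 12.0 to 15.7 CPM, and Nipponbare replicate 1 one of 13.5 to 17.4 CPM, so their intervals overlapped. The intervals of Nipponbare replicates 2 (50.6 to 58.4 CPM) and 3 (27.4 to 32.7 CPM) did not touch that of any CTB3-cr1 library or of Nipponbare replicate 1. These intervals cover counting error only. The coefficient of variation was 13.3% in CTB3-cr1 and 59.4% in Nipponbare, so most of the spread of TPP1 lay among the wild-type panicles.

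TPP1 averaged 11.9 CPM ± 1.59 in CTB3-cr1 and 33.2 CPM ± 19.7 in Nipponbare (SD, n = 3 each). The log2 fold change was -1.48 ± 0.41 (SE), with a 95% interval of -2.45 to -0.50 before any adjustment. In edgeR's quasi-likelihood test the unadjusted p was 0.00855 and the Benjamini-Hochberg adjusted p was 0.714 over all genes. That test called 20 genes in all, which is 0.0780% of those tested, and 0.0156% were called as lower. TPP1 ranked 303 by unadjusted p among the 25636 genes, and a log2 fold change as low or lower was found in 1.84% of them. Without Nipponbare replicate 2 the log2 fold change shrank to -0.93, with an edgeR adjusted p of 1.000, and without Nipponbare replicate 1 it was -1.82, with an edgeR adjusted p of 0.240.

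In the authors' deposited table TPP1 is called lower, with a log2 fold change of -1.47, a p of 0.000297 and an adjusted p of 0.0444. The authors' deposited table calls 0.621% of its genes with an adjusted p, and 0.409% as lower. A rerun of DESeq2 on the counts gave a log2 fold change of -1.47 ± 0.41 (SE) and a DESeq2 adjusted p of 0.0438. The estimates of edgeR and DESeq2 thus nearly coincided in size and standard error, and their p-values did not. The coefficient of biological variation of TPP1, the spread between libraries beyond counting error, was 0.355 in edgeR and 0.340 in DESeq2. Both values are drawn toward those of genes of like abundance. Before that step DESeq2 had 0.434 for TPP1. The edgeR trend for genes of its abundance was 0.210. The edgeR test did not use the 0.355. It scaled the variance expected from the trend by a quasi-dispersion, which was 2.52 for TPP1. edgeR read its statistic against an F distribution with 7.35 denominator degrees of freedom, where DESeq2 uses a normal distribution.

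**Figure D1:**
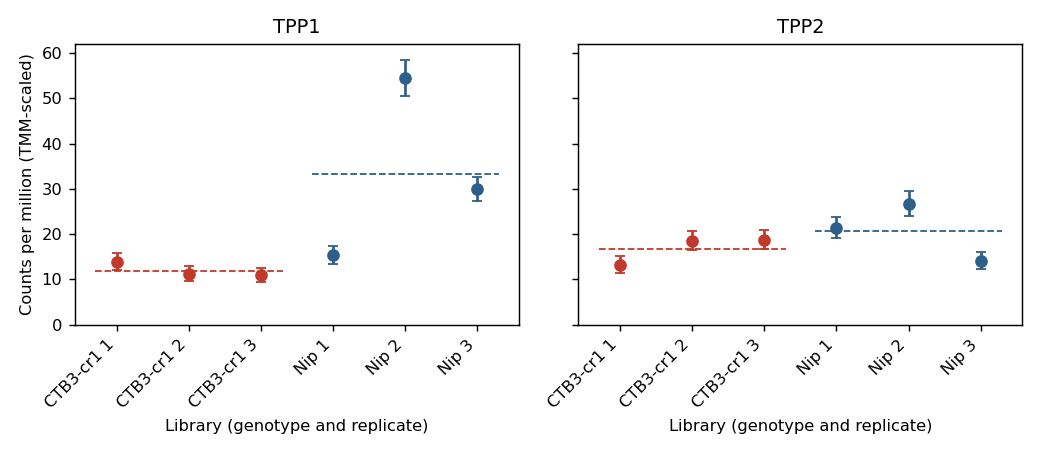
Library-scaled counts (CPM) of TPP1 (left) and TPP2 (right) in each library, CTB3-cr1 in red and Nipponbare in blue. Bars are 95% exact Poisson intervals for counting error and dashed lines are group means; TPP1 spans 10.9 to 13.8 CPM in CTB3-cr1 and 15.3 to 54.4 CPM in Nipponbare, while the TPP2 groups overlap.

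TPP2 had a small difference between the genotypes that did not pass the test, and its groups overlapped. It lies on chromosome 10 from 21707054 to 21710973 on the minus strand. Its counts were 203, 299 and 319 in CTB3-cr1 replicates 1, 2 and 3, against 335, 369 and 238 in Nipponbare replicates 1, 2 and 3. These were 13.2, 18.5 and 18.6 CPM in CTB3-cr1 and 21.3, 26.7 and 14.1 CPM in Nipponbare. Nipponbare replicates 1 and 2 were above every CTB3-cr1 library, while Nipponbare replicate 3 lay among the CTB3-cr1 values, near CTB3-cr1 replicate 1.

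TPP2 averaged 16.8 CPM ± 3.13 in CTB3-cr1 and 20.7 CPM ± 6.35 in Nipponbare (SD, n = 3 each). The log2 fold change was -0.30 ± 0.26 (SE), with a 95% interval of -0.90 to 0.30, an unadjusted p of 0.280 and an adjusted p of 0.996 in edgeR. The data therefore leave room for a moderate decrease as well as a slight increase of TPP2. The log2 fold change was -0.50 without Nipponbare replicate 3 and -0.07 without Nipponbare replicate 2. The authors' deposited table gives TPP2 a log2 fold change of -0.30 and a p of 0.303.

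The library that was highest for both genes was Nipponbare replicate 2, but the genes parted in Nipponbare replicate 3, which was second highest for TPP1 and second lowest for TPP2. Over the 6 libraries their log2 CPM had a Pearson r of 0.397 and a Spearman rho of 0.314, given as a description of samples that share a library and fall into 2 genotypes. The log2 ratio of TPP1 to TPP2, on FPKM with 0.1 added, was 0.15, -0.64 and -0.68 in CTB3-cr1 replicates 1, 2 and 3, and -0.38, 1.11 and 1.17 in Nipponbare replicates 1, 2 and 3. FPKM is a level per gene length and library size, so it allows genes to be compared with each other. TPP1 exceeded TPP2 in CTB3-cr1 replicate 1 and in Nipponbare replicates 2 and 3, and the ratios of the genotypes overlapped. The mean ratio was -0.39 ± 0.47 in CTB3-cr1 and 0.63 ± 0.88 in Nipponbare (SD, n = 3 each), a difference of -1.02 with an exact two-sided permutation p of 0.2. The smallest p that 3 against 3 libraries allow is 0.1, so this comparison could not have passed 0.05. The larger fold change of TPP1 is thus not shown to differ from that of TPP2.

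The table holds 24 genes of trehalose metabolism by name or description, of which 13 are phosphatases, 10 synthases and 1 a trehalase. Of the 13 phosphatases, 2 had no count in any library and 8 passed the filter on low counts. TPP4 (Os02g0753000), TPP9 (Os03g0386500), TPP7 (Os09g0369400), TPP6 (Os08g0409100), TPP8 (Os06g0222100) and TPP3 (Os07g0624600) were the other tested phosphatases. TPP5 (Os04g0554000) was detected at 0.370 to 0.548 FPKM in CTB3-cr1 and 0.304 to 0.625 FPKM in Nipponbare. TPP10 (Os07g0485000) had 3 counts over the CTB3-cr1 libraries and 7 over the Nipponbare libraries. The last detected one, Os05g0153500, had 2 counts in CTB3-cr1 replicate 3 and none elsewhere.

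TPP4 carried the highest mean level in both genotypes, and TPP1 took different places in the order. In CTB3-cr1 the mean FPKM ran from TPP4 (25.03 ± 3.803) through TPP9 (13.7 ± 2.72), TPP7 (9.13 ± 1.10), TPP6 (8.96 ± 1.11) and TPP2 (8.83 ± 1.66) to TPP1 (6.66 ± 0.88, all SD, n = 3). TPP2 and TPP1 overlapped there, at 6.91 to 9.79 FPKM and 6.05 to 7.67 FPKM, and TPP7, TPP6 and TPP2 did not differ beyond their spread. In Nipponbare TPP1 came second, at 18.5 FPKM ± 10.9 (SD, n = 3), after TPP4 at 27.2 FPKM ± 2.89 (SD, n = 3). Its Nipponbare range of 8.56 to 30.2 FPKM covered those of TPP4 and TPP9 and overlapped that of TPP2, so its place in that order differed from library to library. TPP1 ranked 5, 6 and 6 among the 13 phosphatases in CTB3-cr1 replicates 1, 2 and 3, and 5, 1 and 3 in Nipponbare replicates 1, 2 and 3. TPP2 ranked 6, 4 and 4 in CTB3-cr1 and 3, 4 and 5 in Nipponbare.

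**Figure D2:**
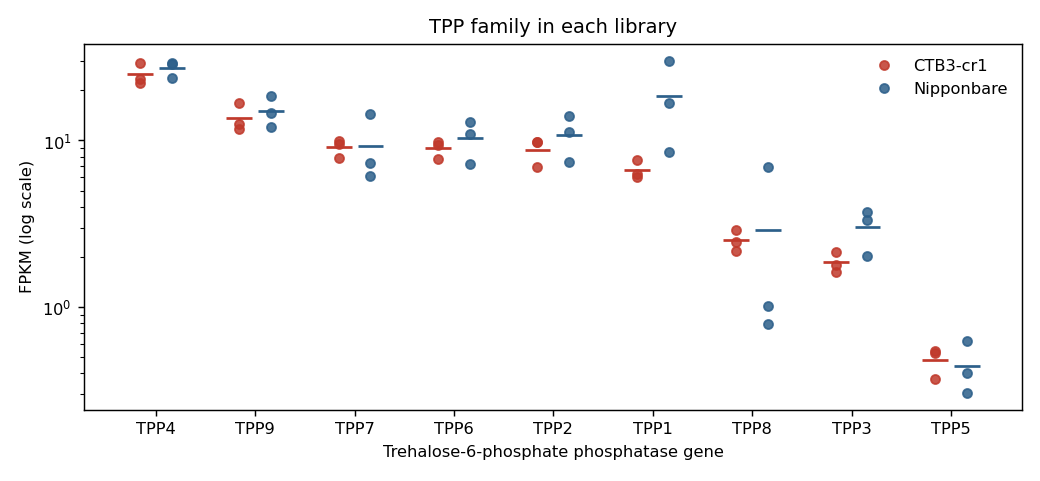
FPKM on a log scale of the 9 phosphatase genes detected in every library, CTB3-cr1 in red and Nipponbare in blue, with 1 point per library and a line at each group mean. TPP1 is at most 7.67 FPKM in CTB3-cr1 and reaches 30.2 FPKM in Nipponbare replicate 2; TPP8 has the widest relative spread, within Nipponbare.

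TPP1 and TPP2 together held 19.5%, 19.7% and 21.0% of the summed phosphatase FPKM in CTB3-cr1, and 23.9%, 39.2% and 24.7% in Nipponbare. All CTB3-cr1 shares were below all Nipponbare shares, as were the shares of TPP1 alone. The mean share was 20.1% ± 0.85 in CTB3-cr1 and 29.3% ± 8.59 in Nipponbare (SD, n = 3 each), a difference of -9.21 percentage points with an exact two-sided permutation p of 0.1, the smallest possible. Without Nipponbare replicate 2 the difference was -4.25 percentage points. The part of TPP1 was 10.2%, 7.67% and 8.04% in CTB3-cr1 and 10.4%, 26.8% and 17.1% in Nipponbare. The mean part of TPP2 was 11.4% ± 1.94 in CTB3-cr1 and 11.2% ± 3.18 in Nipponbare (SD, n = 3 each).

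The phosphatase signal as a whole was 74.8, 81.7 and 75.2 FPKM in CTB3-cr1, against 82.5, 112.6 and 97.7 FPKM in Nipponbare. The groups did not overlap, with an exact two-sided permutation p of 0.1, again the smallest possible. With TPP1 taken out, the sums were 67.2, 75.4 and 69.2 FPKM in CTB3-cr1 and 74.0, 82.5 and 81.0 FPKM in Nipponbare. The groups then overlapped, as CTB3-cr1 replicate 2 was above Nipponbare replicate 1. The difference of means was -8.56 FPKM without TPP1 (exact two-sided permutation p of 0.2), against -20.4 FPKM with it. Summed synthase levels were 229.2, 275.6 and 233.9 FPKM in CTB3-cr1 and 259.3, 271.9 and 263.0 FPKM in Nipponbare, also overlapping.

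**Figure D3:**
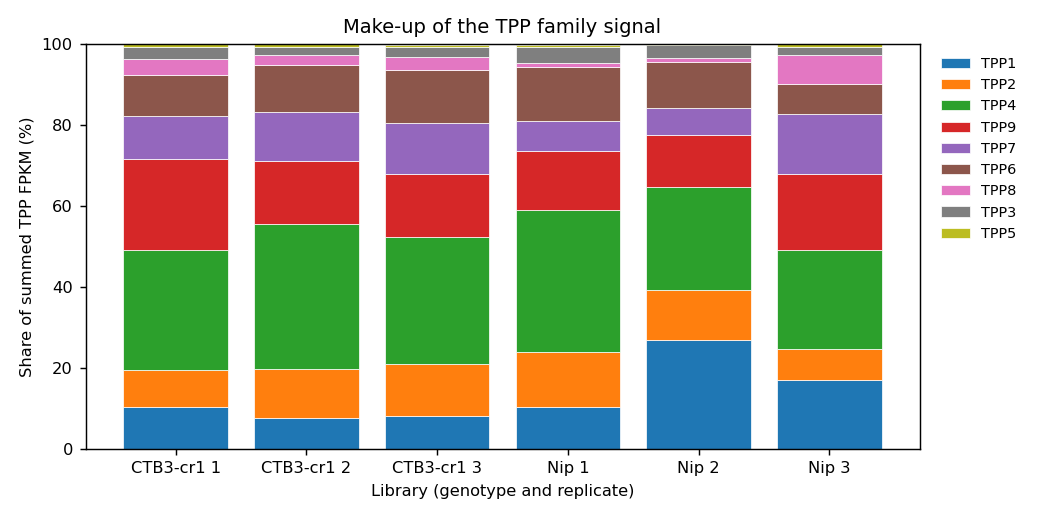
Share of the summed phosphatase FPKM held by each gene, stacked to 100% for each library, CTB3-cr1 to the left of Nipponbare (Nip). TPP1, at the bottom, takes 7.67% to 10.2% in CTB3-cr1 and 10.4% to 26.8% in Nipponbare; phosphatases not detected in every library are too low to be seen.

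No phosphatase, TPP1 included, passed the edgeR test over all genes, and the other phosphatases had smaller differences than TPP1. All 8 tested phosphatases, TPP1 and TPP2 included, had a negative log2 fold change in edgeR, with a median of -0.22, against a median of 0.00 over all genes tested. Among the other 6, TPP3 had -0.71 ± 0.31 (SE), TPP6 -0.21 ± 0.23 (SE), TPP9 -0.14 ± 0.21 (SE), TPP4 -0.12 ± 0.15 (SE), TPP8 -0.23 ± 0.78 (SE) and TPP7 -0.03 ± 0.32 (SE). The signs of TPP7 and TPP8 turned positive in limma-voom, with the replicate number as a block and on log2 FPKM, those of TPP7, TPP8 and TPP9 without Nipponbare replicate 3, and that of TPP7 without CTB3-cr1 replicate 1. Of the 24 genes, 18 were tested, 0 were called, and 2 had an unadjusted p under 0.05 in edgeR, both lower. Over all genes tested, 5.25% had such a p and 3.60% were also lower. In the DESeq2 rerun, which called 0.714% of its genes, 1 was called, TPP1.

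The counts of TPP3 were 51, 40 and 47 in CTB3-cr1 and 81, 79 and 53 in Nipponbare. Nipponbare replicates 1 and 2 were above all CTB3-cr1 libraries in CPM and Nipponbare replicate 3 was among them (edgeR unadjusted p = 0.0517, adjusted p = 0.940). TPP8, described as similar to Ramosa 3, a maize phosphatase that restricts branching of the inflorescence, had 54, 42 and 51 counts in CTB3-cr1 and 15, 17 and 142 in Nipponbare. Nipponbare replicate 3 was thus far above, and Nipponbare replicates 1 and 2 far below, every CTB3-cr1 library. TPP7, known in rice for germination under water, had 191, 251 and 257 counts in CTB3-cr1 and 151, 159 and 384 in Nipponbare. Its order within Nipponbare matched that of TPP8, with replicate 3 highest.

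TPP2 varied between libraries most like TPP6, among the pathway genes. TPP6 had 214, 272 and 302 counts in CTB3-cr1 and 310, 322 and 220 in Nipponbare. The Pearson r of log2 CPM between TPP2 and TPP6 was 0.982 over 6 libraries, with a Spearman rho of 0.943, and r was 0.996 without the 2 libraries farthest from the median of TPP2. With TPP8, TPP2 had an r of -0.821. These are descriptions, since the libraries fall into 2 genotypes and share their depth between genes. No label or header names the read counter, so reads shared by similar family members could have been split between them.

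Among the synthases, TPS4 (Os03g0224300) was the one with the lowest log2 fold change. It was also the most abundant synthase, where CTB3-cr1 had 2504, 3028 and 2687 counts and Nipponbare 3681, 3612 and 3332. In CPM these were 162.5, 187.9 and 157.0 in CTB3-cr1 and 234.2, 261.5 and 196.9 in Nipponbare, with no overlap between the genotypes; 5.36% of genes tested lay apart in that direction. Its log2 fold change was -0.45 ± 0.15 (SE), with an edgeR unadjusted p of 0.0188 and an adjusted p of 0.794, and the adjusted p of the authors' deposited table is 0.327. The highest log2 fold change of the 9 tested synthases was that of TPS8 (Os08g0445700), 0.17 ± 0.21 (SE), and the median was -0.00. TPS1 (Os05g0518600), which makes active synthase, stood at 40.3 FPKM ± 7.19 in CTB3-cr1 and 40.4 FPKM ± 5.19 in Nipponbare (SD, n = 3 each). Trehalase 1 (Os10g0521000) stood at 10.96 FPKM ± 2.20 in CTB3-cr1 and 10.7 FPKM ± 2.80 in Nipponbare (SD, n = 3 each).

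Of 7 genes of the SnRK1 kinase or its partners, all tested, 0 passed over all genes in edgeR and 1 had an unadjusted p under 0.05. Over all genes tested, 0.0780% were called and 5.25% had an unadjusted p under 0.05. The median log2 fold change of the 7 genes was 0.16, against -0.0026 over all genes tested. The SnRK1 gene with an unadjusted p under 0.05 was Os09g0512800, similar to an SnRK1-interacting protein. CTB3-cr1 had 576, 595 and 605 counts of it and Nipponbare 485, 401 and 404. Its log2 fold change was 0.39 ± 0.13 (SE), with an edgeR adjusted p of 0.789. The kinase gene Os05g0530500, similar to OSK1, had 1835, 1713 and 2040 counts in CTB3-cr1 and 2006, 1484 and 1722 in Nipponbare, which overlapped.

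**Figure D4:**
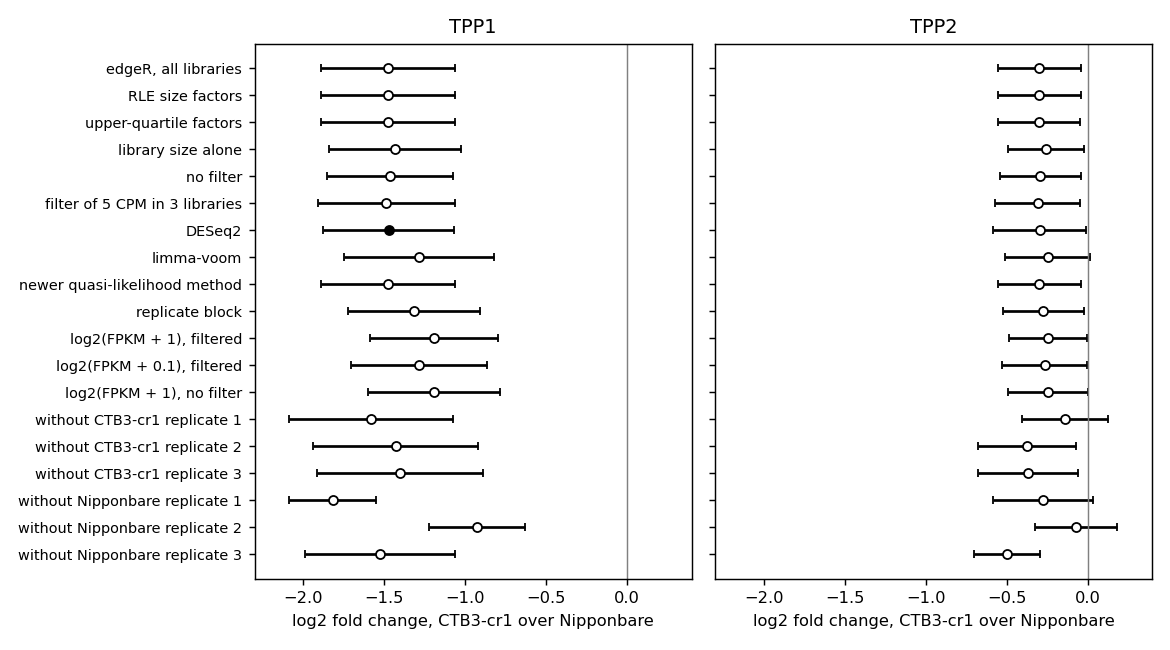
Log2 fold change of CTB3-cr1 over Nipponbare for TPP1 (left) and TPP2 (right) under each way of processing, with bars of 1 standard error. A filled point marks an adjusted p under 0.05, reached by TPP1 in DESeq2 alone; TPP1 lies between -1.82 and -0.93 and TPP2 between -0.50 and -0.07.

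The genes whose log2 CPM followed TPP1 most closely over the 6 libraries shared its high value in Nipponbare replicate 2. The closest was CHITINASE 9 (Os05g0399400), a chitin-degrading enzyme, with a Pearson r of 0.992 and a Spearman rho of 0.886. It had 4.54, 2.61 and 3.33 CPM in CTB3-cr1 and 4.26, 41.6 and 18.4 CPM in Nipponbare. Nipponbare replicate 1 lay among the CTB3-cr1 libraries for this gene, as it nearly did for TPP1. Next came an aldehyde dehydrogenase gene (Os11g0186200, r 0.986), an F-box gene (Os04g0329500, r 0.986), the WD40 gene OsWD40-14 (Os01g0383700, r 0.983) and FK506 binding protein 73 (Os01g0563000, r 0.981). Nipponbare replicates 2 and 3 were the libraries farthest from the median of TPP1. Over the 4 libraries without them, r of these 5 genes ranged from 0.486 for OsWD40-14 to 0.910 for the F-box gene. The high r thus depended in large part on Nipponbare replicates 2 and 3. In the 4 libraries TPP1 spanned only 10.9 to 15.3 CPM, and so narrow a range can lower r by itself. The gene most opposite to TPP1 was another F-box gene, Os10g0136150, with an r of -0.997.

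For TPP2 the closest was Os08g0387500, similar to a sulfated surface glycoprotein, with an r of 0.998 and 7.46, 10.7 and 10.6 CPM in CTB3-cr1 against 12.0, 14.5 and 8.10 CPM in Nipponbare. Then followed MULTIDRUG RESISTANCE 17 (Os01g0723800, r 0.995), a toxin reductase gene (Os06g0651100, r 0.993), b-ZIP TRANSCRIPTION FACTOR 14 (Os02g0132500, r 0.993) and a peptidyl-prolyl isomerase gene (Os04g0663800, r 0.993). Their r remained between 0.975 and 0.999 without the 2 libraries farthest from the median of TPP2. The gene most opposite to TPP2 was TOPOISOMERASE 6 SUBUNIT A2 (Os08g0156900), with an r of -0.997. These genes were picked as the extremes of 14001 eligible genes over 6 libraries, so high values follow in part from the choice. An r of at least 0.9, a lower bar, was reached by 188 genes with TPP1 and 531 with TPP2.

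**Figure D5:**
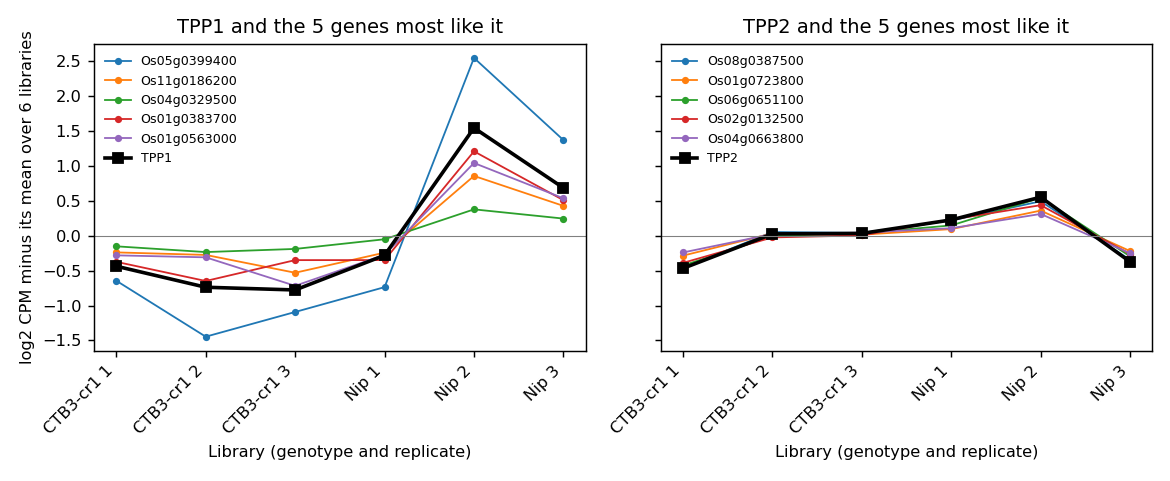
Log2 CPM, less its mean over the 6 libraries, of TPP1 (left) and TPP2 (right) in black and of the 5 genes with the highest Pearson r to each in colour. TPP1 and its nearest genes are highest in Nipponbare replicate 2, then replicate 3; TPP2 and its nearest genes are highest in Nipponbare replicate 2 and low in CTB3-cr1 replicate 1 and Nipponbare replicate 3.

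Summed markers of 2 other tissues were highest in the library in which TPP1 was highest, but did not follow TPP1 in every library. The summed CPM of 13 genes of the tapetum and pollen wall, all detected in every library, was 1826.3, 2839.3 and 1895.3 in CTB3-cr1 and 4218.1, 6262.9 and 3430.2 in Nipponbare. It was lower in every CTB3-cr1 library than in any Nipponbare library, and highest in Nipponbare replicate 2. Of single genes tested, 5.36% lay apart with CTB3-cr1 lower, a share that was not computed for summed lists. Abundant genes weigh most in the tapetum sum, and not every gene followed it. The 13 genes had a negative log2 fold change in edgeR except Os01g0293100 (0.52) and Os09g0449000 (0.03). Os01g0293100 was lowest in Nipponbare replicate 2, at 39.4 CPM. The summed CPM of 27 genes matched by words for chlorophyll a/b binding proteins or the small subunit of Rubisco, of which 5 had no count in any library and 21 were detected in every library, was 2764.6, 3069.7 and 2548.4 in CTB3-cr1 and 2492.7, 5001.5 and 2629.9 in Nipponbare, again highest in Nipponbare replicate 2. The words also matched regulators with a CCT domain, among them HEADING DATE 7 (Os07g0261200), a flowering-time gene without a count in any library, and Os05g0595300, at 344 to 649 counts per library, so not all of these genes are of photosynthesis. The part of either tissue in the level of TPP1 was not tested. In whole panicles, fewer cells that express a gene and less RNA per cell cannot be told apart.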

How the data were processed

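RNA from 6 rice panicle libraries was sequenced by the submitters. Per the submitters' processing notes, fastp 0.19.7, HISAT2 and DESeq2 were used; genome build, read counter and strand setting are named in no label or header. The authors deposited raw counts and FPKM per library, group means on a normalised signal scale, and log2 fold changes with p-values of their comparison. Of 39369 lines, 2 lacked an identifier and were left out; they held up to 0.000478% of the counts of a library.

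The main test was edgeR 4.0.16 (R 4.3.3): filterByExpr, TMM, quasi-likelihood F test, Benjamini-Hochberg adjustment over 25636 genes, threshold 0.05. Standard errors are the log2 fold change over the square root of F. Alternatives used DESeq2 1.42.0 and limma 3.58.1 (voom, and trend on log2 FPKM). The script was tested on simulated counts with 200 changed genes. The labels call the samples biological replicates; no 2 libraries agreed within sampling noise (smallest chi-square per degree of freedom 13.9).

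The members and lists were chosen with earlier results of these data known. Pathway genes were found by words in names and descriptions. The rule for named genes took both members, pathway genes, SnRK1 genes and, for each member, the 5 genes with the highest and 3 with the lowest Pearson r of log2 CPM among described genes of at least 5 CPM in the higher group. Promoter motifs were not analysed here.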

Additional observations from a re-analysis of the deposited data

How the results depend on the processing

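TPP1 stayed negative and uncalled in 17 of 18 alternatives and was called in DESeq2 (log2 fold change -1.47), with adjusted p of 0.0438 to 0.962 outside the leave-one-out fits and 0.240 to 1.000 within them. Leaving out single libraries gave -1.82 to -0.93 for TPP1, -0.50 to -0.07 for TPP2, -1.53 to -0.75 for the difference in the TPP1 to TPP2 log2 ratio and -11.9 to -4.25 percentage points for the difference in their share of phosphatase FPKM, with no change of sign. TPP2 was uncalled in all 18. The number of genes called was 202 in DESeq2, and 4 to 16 when single libraries were left out. The trehalose genes called were 1 in DESeq2 and 0 in every other alternative.

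Deviations from the group means correlated at -0.274, 0.367 and -0.071 for same-numbered libraries, and at -0.391 to 0.47 for differently numbered ones. With 3 libraries per group these values depend on each other. They cannot show whether the replicate numbers mark a shared batch. With the replicate block 4 genes were called, and TPP1 had -1.31 and TPP2 -0.27. Pairing by replicate number cannot alter a difference of group means, so -1.02 for the log2 ratio and -9.21 percentage points for the share were bound to stay. The exact permutation p became 0.5 with the block against 0.2 without it for the ratio. For the share it became 0.25 against 0.1. With 3 pairs this p cannot be low, so it decides nothing about either difference.

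TPP7 (Os09g0369400) had a positive log2 fold change of 0.052 in limma-voom, 0.064 with the replicate block, 0.057 and 0.071 on filtered FPKM with 1 and 0.1 added, and 0.057 unfiltered. TPP8 (Os06g0222100) had 0.41 in limma-voom and with the block, 0.19 and 0.44 on filtered FPKM, and 0.19 unfiltered. Without single libraries TPP7 ranged from -0.26 to 0.46, TPP8 from -0.68 to 1.49 and TPP9 (Os03g0386500) from -0.30 to 0.055. The causes were not tested. With 14422565 to 16982031 counts per library, the phosphatases below the filter could not be compared. Likeness was also computed without 2 libraries, on library size alone and on FPKM, chosen after seeing the data.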
